A study of Mus musculus with 30 samples.

Results

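The lungs of lincRNA-Cox2 knockout mice were compared with those of lincRNA-Cox2 mutant mice, both from animals labelled PBS and not LPS. The comparison takes every library of these groups, 4 of the 30 in the series (2 knockout and 2 mutant), and all 19470 entries of the lung table. The mice were 8 weeks old and of the C57BL/6 strain, per the labels. PBS (phosphate-buffered saline) is the control treatment. The wild type PBS lungs (2 libraries) were set beside both lines. Lungs given LPS and the spleens lie outside the groups compared. LPS is lipopolysaccharide, a bacterial cell wall component, given at 20 mg/kg for 6 h (3 libraries per genotype). Both lines carry an altered lincRNA-Cox2 gene, and the labels do not say how either allele was made. Nor do they name an animal for each replicate, so the p-values rest on a spread between libraries, which may be technical. The authors also give a mean over 15 lung libraries. That spread may thus have been estimated from all of them and not from these 4 alone. Estimated library totals were 11.5 and 11.2 M reads in the knockout and 17.3 and 7.54 M in the mutant.

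LincRNA-Cox2 is a long noncoding RNA that is transcribed beside Ptgs2, the gene of cyclooxygenase 2. It is known as an RNA that immune cells induce through Toll-like receptors, and its locus has been studied both for the RNA it makes and as a regulatory element of its neighbour. Cyclooxygenase 2 turns arachidonic acid into prostaglandin H2, from which dedicated synthases make the prostaglandins and thromboxane that act on vessels, airways and immune cells of the lung. The comparison sets side by side 2 altered lines, neither with detectable lincRNA-Cox2 in lung.

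The promoter windows of Ptgs2 and lincRNA-Cox2 are shown because the lines differed in the first gene and were alike at 0 in the second. Each runs from 250 bases before to 50 after the start of the gene, in RefSeq on GRCm38.p6, 5′ to 3′ on the gene's own strand. That of Ptgs2 lies at chr1:150099781-150100080 on the plus strand, and that of lincRNA-Cox2, listed there as Ptgs2os2, at chr1:150164899-150165198 on the minus strand. Capitals mark matches on either strand to a C/EBP site (TTNNGCAA, both genes) and to an E-box (CACGTG, Ptgs2).
Ptgs2: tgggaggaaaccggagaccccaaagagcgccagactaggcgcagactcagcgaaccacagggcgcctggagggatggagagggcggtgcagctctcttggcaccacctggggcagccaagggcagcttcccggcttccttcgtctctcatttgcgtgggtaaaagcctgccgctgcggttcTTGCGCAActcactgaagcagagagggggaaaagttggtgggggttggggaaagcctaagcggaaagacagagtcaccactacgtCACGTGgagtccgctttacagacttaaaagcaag
Ptgs2os2: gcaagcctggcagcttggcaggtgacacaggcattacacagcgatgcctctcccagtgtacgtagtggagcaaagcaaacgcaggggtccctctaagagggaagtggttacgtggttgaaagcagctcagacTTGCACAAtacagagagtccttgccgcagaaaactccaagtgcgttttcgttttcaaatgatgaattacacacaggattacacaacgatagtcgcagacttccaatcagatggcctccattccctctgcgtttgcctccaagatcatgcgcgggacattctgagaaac
The C/EBP match starts 69 bases before the start site in Ptgs2 and 118 before it in lincRNA-Cox2. Of 32851 RefSeq windows of this length 10.8% held the C/EBP letters and 7.15% the E-box. Neither window held TATAAA (13.6% of all windows), the AP-1 letters TGANTCA (7.81%) or the cAMP response element TGACGTCA (1.79%). The NF-kB letters GGGRNNYYCC (R is A or G, Y is C or T) were absent from both as well, and lay in 8.46% of all windows. These are matches of letters and no measure of binding.

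LincRNA-Cox2 itself was not detected in either line. It lies at chr1:150159043-150164948 (mm10). Its authors' mean, in counts normalized for library size, was 34.8 in wild type lung with PBS and 0 in mutant and in knockout. A count of 0 allows a mean of up to 1.48 in the mutant and 1.04 in the knockout, which is 3 reads over each group and covers counting error only. No fold between the lines can be given, since both lines are at 0.

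Between knockout and mutant lung with PBS, 10 of 19131 tested entries had an adjusted p under 0.05 according to the authors' deposited table, which is 0.0523% of those tested. Of these, 6 were higher in the knockout (0.0314%) and 4 lower (0.0209%). The genes lower in the knockout were Ptgs2, Chil1, Mcm6 and Wdfy1, and those higher were Tnn, Ctse, Steap3, Slc25a37, 1700112E06Rik and Pisd-ps3. At an adjusted p up to 0.1, the limit of the authors' own calls, the same 10 were found. The next entry, 1 of 2 for Entpd4, a nucleotide phosphatase of the Golgi, had an adjusted p of 0.266 by the authors' deposited table, with authors' means of 59.8 in the mutant and 115 in the knockout. Of the tested entries 19112 had an adjusted p of 1, and 339 entries had none.

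Ratios of the authors' means, with a pseudocount of 1 added to each, describe the entries without a call or a p-value. They understate the change of low genes and have no replicate check. Of the 14763 entries whose mean reached 10 in at least 1 of the lines, 138 were at least 2-fold higher in the knockout (0.935%) and 61 at least 2-fold lower (0.413%). The median log2 ratio was 0.015, and the 5th and 95th percentiles were -0.42 and 0.40.

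**Figure D1:**
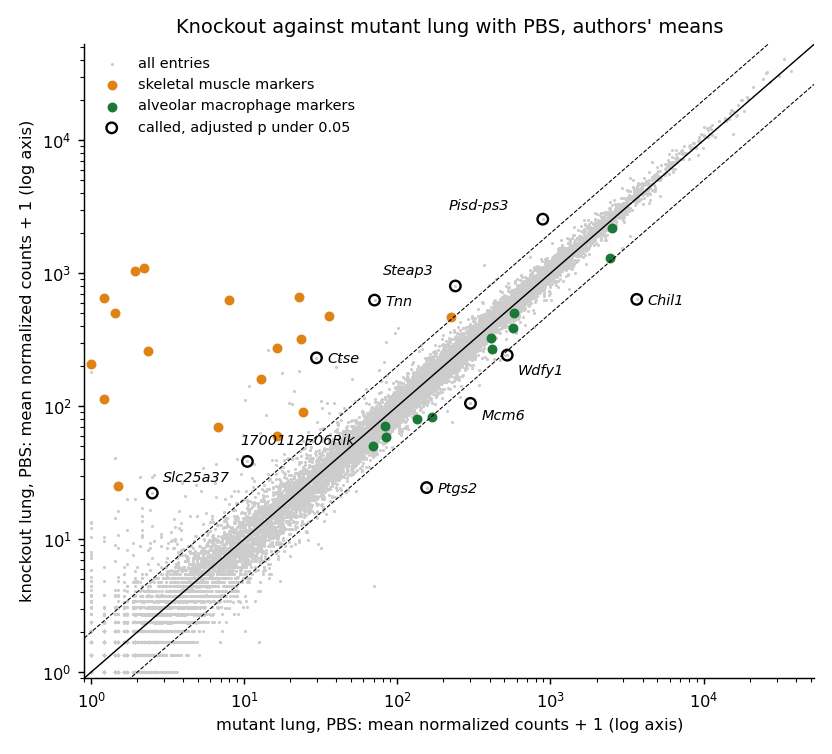
Authors' mean normalized counts + 1 in mutant lung (x axis, log) and knockout lung (y axis, log), both with PBS, for all 19470 entries, with the line of equality and dashed lines at 2-fold. The 10 called entries are ringed and named; skeletal muscle markers (orange) lie at least 2-fold above the line without a call, and the 11 alveolar macrophage markers (green) lie below it.

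For 6 of the 10 calls the reads of each library could be recovered from the group mean, because 1 read in 1 library adds a fixed amount to it. The larger library of each group by size factor is called library 1 here, since which labelled replicate it is cannot be told. In all 6 both knockout libraries lay beyond both mutant libraries, with no overlap. Among the 114 lines of the table that could be resolved in both groups, chosen by precision of the deposited means and hence by a low p in some lung comparison, 35.1% (40 lines) did not overlap, so non-overlap was common among them. With 2 libraries against 2 an exact permutation test cannot go below p = 0.333, so the tests given are those of the authors.

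Ptgs2 had the smallest adjusted p of the comparison. Its normalized counts were 19.6 and 27.1 in the knockout libraries (29 and 39 reads), 187 and 121 in the mutant libraries (435 and 123 reads), and 229 and 148 in wild type. Every knockout library was thus below every mutant and wild type library, while mutant and wild type overlapped. From mutant to knockout Ptgs2 fell by 2.60 (log2) per the authors' deposited table (adjusted p 9.62e-14). Leaving out 1 library at a time moved the log2 ratio of the means, -2.67 with all 4, between -2.95 and -2.33. Ptgs2 lies at chr1:150100031-150108227 and ends 50.8 kb from lincRNA-Cox2.

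Among 18 listed genes of prostanoid and leukotriene synthesis, transport and breakdown whose mean reached 10 in 1 or both lines, only Ptgs2 was called. Of the 18, 13 had a log2 ratio of means below 0, and the median was -0.08, beside 0.015 over all such entries. The 18 include the lipoxygenase and leukotriene genes Alox5, Alox5ap, Alox12, Alox15, Lta4h and Ltc4s, each with a log2 ratio below 0. Ptgs1, the constitutive cyclooxygenase, had authors' means of 734 in the mutant and 703 in the knockout. Pla2g4a, the cytosolic phospholipase that frees arachidonic acid, lies next to Ptgs2 and was at 138 and 140 normalized counts in the mutant libraries and at 81.2 and 81.3 in the knockout libraries. The groups did not overlap, yet the authors' deposited table gives a log2 fold of -0.75 and adjusted p = 1. In lung with LPS the same contrast of Pla2g4a was called, with a log2 fold of -0.83 by the authors' deposited table (adjusted p 0.0262). Slco2a1, the prostaglandin transporter and the member with the highest mean, was at 6290 and 6080. Hpgds, a prostaglandin D synthase, had the highest ratio of the list, with authors' means of 25.8 and 29.5.

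The 7 prostanoid receptors with a mean of at least 10 had a median log2 ratio of 0.14, and none was called. Ptger3, a receptor of prostaglandin E2, had the highest ratio, with authors' means of 17.2 in mutant and 38.2 in knockout lungs and a wild type mean of 19.1. Ptgir, the prostacyclin receptor, had the lowest, with authors' means of 69.5 and 62.9. Among 12 genes listed around lincRNA-Cox2 the median log2 ratio was 0.06 and Ptgs2 alone was called. Beside Ptgs2 and Pla2g4a their log2 ratios ran from -0.27 to 0.29. Ivns1abp, an actin-associated protein, had authors' means of 1610 and 1500, and Prg4, the lubricant of joint and other surfaces, 115 and 141. Ptgs2os, an antisense RNA that starts beside Ptgs2, had authors' means of 0.708 and 0, too low to compare.

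Chil1, which encodes a secreted chitinase-like lectin, had the largest fall among the 10 calls after Ptgs2. Its authors' means were 5256 in wild type, 3661 in mutant and 635 in knockout lungs. It fell by 2.44 (log2) per the authors' deposited table (adjusted p 3.04e-13). The knockout mean allows 3 pairs of library values: 212 and 1058, 627 and 643, or 1042 and 228. The mutant mean allows a pair of 2938 and 4384 or one of 6941 and 381, and in 3 of the 6 combinations the groups do not overlap. Chil3, a related protein of alveolar macrophages, had authors' means of 2460 and 1300, and adjusted p = 1 by the authors' deposited table.

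Tnn, tenascin-N, a glycoprotein of the extracellular matrix, had the largest rise among the 10 calls by the authors' folds. Its authors' means were 62.1 in wild type, 69.9 in mutant and 627 in knockout lungs, and its mutant libraries stood at 99.3 and 40.5. It rose by 2.97 (log2) per the authors' deposited table (adjusted p 1.25e-10). The knockout mean allows pairs of 371 and 883, 786 and 468, or 1200 and 53.5, of which 2 of 3 lie wholly above the mutant libraries. Among 23 collagens and matrix genes the median log2 ratio was 0.12 and Tnn alone was called; Tnc, a related tenascin, had the lowest ratio, with authors' means of 190 and 168, and Fn1, fibronectin, was at 3480 and 5000.

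The promoter windows of Chil1 and Tnn are shown because among the 10 calls these genes had the largest fall beside Ptgs2 and, by the authors' folds, the largest rise; uncalled entries had larger ratios in both directions. That of Chil1 lies at chr1:134181906-134182205 on the plus strand and that of Tnn at chr1:160153526-160153825 on the minus strand. Capitals mark the NF-kB match in both and, in Tnn, also the C/EBP match, which comes first.
Chil1: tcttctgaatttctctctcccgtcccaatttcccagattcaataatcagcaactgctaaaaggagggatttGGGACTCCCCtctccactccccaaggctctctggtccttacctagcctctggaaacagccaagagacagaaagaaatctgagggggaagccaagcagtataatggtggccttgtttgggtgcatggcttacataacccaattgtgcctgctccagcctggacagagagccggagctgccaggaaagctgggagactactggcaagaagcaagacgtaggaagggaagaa
Tnn: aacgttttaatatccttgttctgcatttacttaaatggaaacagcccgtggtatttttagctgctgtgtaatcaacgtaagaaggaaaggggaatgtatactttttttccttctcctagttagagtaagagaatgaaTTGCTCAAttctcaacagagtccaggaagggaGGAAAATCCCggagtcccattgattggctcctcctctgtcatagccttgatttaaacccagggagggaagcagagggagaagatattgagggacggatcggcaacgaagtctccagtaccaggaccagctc
The NF-kB match starts 179 bases before the start site in Chil1 and 81 before it in Tnn, and the C/EBP match of Tnn 113 before it. No E-box, AP-1, cAMP response element or TATAAA letters lie in either window. Of the 10 calls 5 had a window in the RefSeq table.

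Wdfy1, an endosomal adaptor protein of Toll-like receptor signalling, was lower in both knockout libraries than in any other. Its normalized counts were 219 and 263 in the knockout, 542 and 499 in the mutant and 423 and 331 in wild type. Wild type lay between the lines without touching either. Wdfy1 fell by 1.10 (log2) per the authors' deposited table (adjusted p 3.14e-06).

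Mcm6, part of the MCM helicase that unwinds DNA at replication, was at 91.4 and 117 normalized counts in the knockout, 298 and 300 in the mutant and 290 and 401 in wild type. Both knockout libraries lay below all others. It fell by 1.48 (log2) per the authors' deposited table (adjusted p 6.57e-05). Its partners in the helicase were not called: the authors' means of Mcm2 were 144 in the mutant and 139 in the knockout, those of Mcm3 207 and 200, of Mcm4 283 and 282, of Mcm5 87.7 and 83.9, and of Mcm7 214 and 206. Over 26 cell cycle and replication genes the median log2 ratio was 0.01, with 13 above 0 and 13 below. Aurkb, a mitotic kinase, had the highest ratio, with authors' means of 12.3 and 16.5.

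Ctse encodes cathepsin E, an aspartic protease of immune and epithelial cells, and has 2 entries in the table that lay on opposite sides of equality. The first was at 286 and 174 normalized counts in the knockout, 33.5 and 23.7 in the mutant and 23.8 and 17.3 in wild type, and rose by 2.67 (log2) per the authors' deposited table (adjusted p 4.58e-04). The second was at 10.8 and 9.73 in the knockout, 29.2 and 19.7 in the mutant and 29.1 and 15.0 in wild type. The authors' deposited table gives it a log2 fold of -1.16 and adjusted p = 1, although the knockout libraries lay below all others. The files do not say how the entries of 1 gene differ, so the split of reads between them is uncertain. Over 20 matrix proteases and inhibitors the median log2 ratio was -0.04 and Ctse alone was called; Ctss, another cathepsin, had the lowest ratio, with authors' means of 1050 and 856.

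Steap3 and Slc25a37 handle iron, the former as the reductase that lets transferrin-bound iron leave the endosome and the latter, mitoferrin, as the iron importer of mitochondria. The authors' means of Steap3 were 253 in wild type, 238 in mutant and 801 in knockout lungs, and its mutant libraries stood at 270 and 206. It rose by 1.69 (log2) per the authors' deposited table (adjusted p 1.26e-05). In 3 of the 4 pairs that the knockout mean allows both libraries lie above both mutant libraries. Slc25a37 (chr14:69241848-69285112) again has 2 entries. The called entry was at 25.0 and 17.4 normalized counts in the knockout (37 and 25 reads), 3.01 and 0 in the mutant (7 and 0 reads) and 7.94 and 4.62 in wild type, and rose by 2.81 (log2) per the authors' deposited table (adjusted p 9.98e-04). The log2 ratio of its means was 3.15, and 4.47 without mutant library 1, which holds all 7 mutant reads. The entry with the higher mean had authors' means of 663 and 745 and a log2 fold of 0.16 by the authors' deposited table (adjusted p = 1). The 16 iron and heme genes listed had a median log2 ratio of -0.04 and Steap3 alone was called among them. Steap4, a related reductase, had the next ratio, with authors' means of 143 and 269. Tfrc, the transferrin receptor, had authors' means of 472 and 443.

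1700112E06Rik, placed through a RefSeq synonym (chr14:22019504-23056093), was at 33.2 and 41.7 normalized counts in the knockout, 12.0 and 6.91 in the mutant and 24.7 and 32.3 in wild type. Here the mutant libraries were the ones below all others. It rose by 1.76 (log2) in the knockout per the authors' deposited table (adjusted p 0.0447). Pisd-ps3, a transcribed pseudogene of phosphatidylserine decarboxylase, had authors' means of 1402 in wild type, 890 in mutant and 2550 in knockout lungs. It rose by 1.45 (log2) per the authors' deposited table (adjusted p 0.0457). Reads of a pseudogene and its parent or copies cannot be assigned with certainty, the mutant libraries stood at 885 and 894, and the knockout mean allows 13 pairs of library values.

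**Figure D2:**
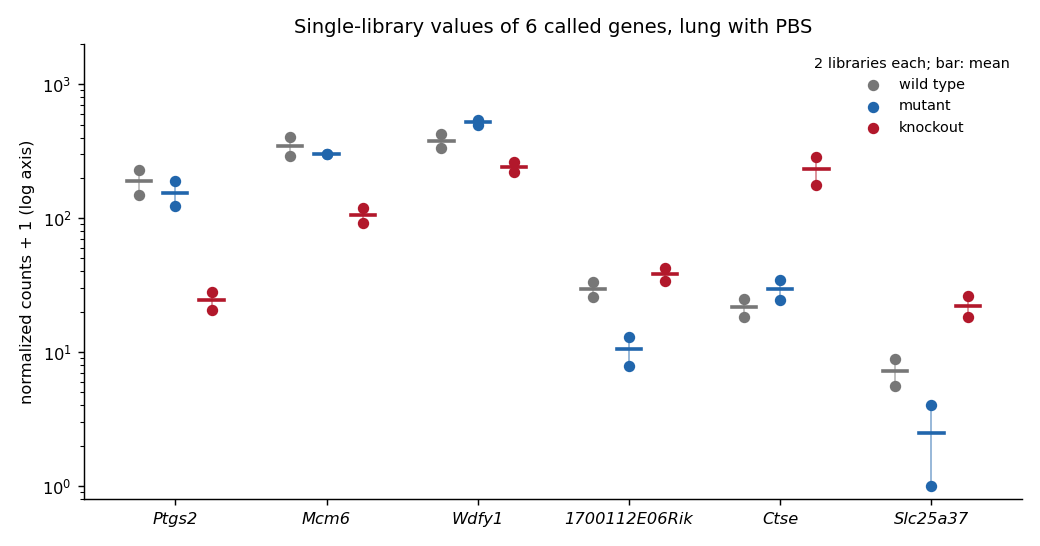
Normalized counts + 1 (y axis, log) of the 6 called genes with recoverable reads, in the 2 libraries of each PBS group (points; the short bar is their mean). Knockout libraries (red) lie apart from mutant libraries (blue) for each gene, and for 1700112E06Rik they lie near wild type (grey).

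The same contrast in LPS-treated lungs uses other libraries of the same lines. The authors may have fitted both treatments together, in which case the comparisons share an estimate of spread. Of the 10 entries, 9 were called there too, in the authors' deposited table, against 39 of 16030 tested entries or 0.243%, and all 10 had the same sign. The lines, and with them whatever else they carry, are the same in both treatments. The LPS groups also differ in Xist, expressed from the inactive X chromosome, with authors' means of 4510 in the mutant and 23.2 in the knockout, whose part was not tested. Put the other way, 23.1% of the 39 entries called with LPS were called with PBS, and 28 of the 39 had the same sign there. In the authors' deposited table the log2 fold of the called Slc25a37 entry was 2.81 with PBS and 3.70 with LPS. The other Slc25a37 entry, which has the higher mean, had a log2 fold of 0.06 with LPS there (adjusted p 0.983). Steap3 had a fold of 1.69 under both treatments. Tnn had a fold of 2.97 with PBS and 1.83 with LPS in the authors' deposited table, the latter at adjusted p 1.93e-04. Chil1 was the exception, since its fold was -2.44 with PBS and -0.27 with LPS by the authors' deposited table (adjusted p 0.858). Its authors' means with LPS were 14790 in the mutant and 12247 in the knockout. The difference between treatments was not tested. Nnt, the mitochondrial transhydrogenase that makes NADPH, was at 221 and 263 normalized counts in the knockout and 525 and 485 in the mutant with PBS, without overlap. By the authors' deposited table its log2 fold was -1.03 with PBS (adjusted p 0.294, not called) and -1.47 with LPS (adjusted p 4.41e-06, called).

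In spleen none of the 18185 tested entries was called with PBS (0%), each at adjusted p = 1 by the authors' deposited table. Unadjusted p-values were not used here. Of the 10 lung calls, 9 had the same sign in spleen with PBS and 8 with LPS. With LPS none of the 10 was called there, against 21 of 11871 entries (0.177%). The called Slc25a37 entry and 1700112E06Rik had no adjusted p in spleen with LPS and so could not be called. Their log2 folds there were 1.67 and 1.45 by the authors' deposited table. Ptgs2 was low in spleen with PBS, with authors' means of 5.13 in the mutant and 1.29 in the knockout. The called Ctse entry had authors' means of 1050 and 1770 there and Mcm6 689 and 485. For Ctse and Slc25a37 the other entry went the opposite way in spleen with PBS. Its authors' means in mutant and knockout were 133 and 34.1 for Ctse and 1860 and 1490 for Slc25a37. Chil1 went from 64.4 in the mutant to 70.5 in the knockout by the authors' means, and was the 1 call of the 10 with the opposite sign.

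**Figure D3:**
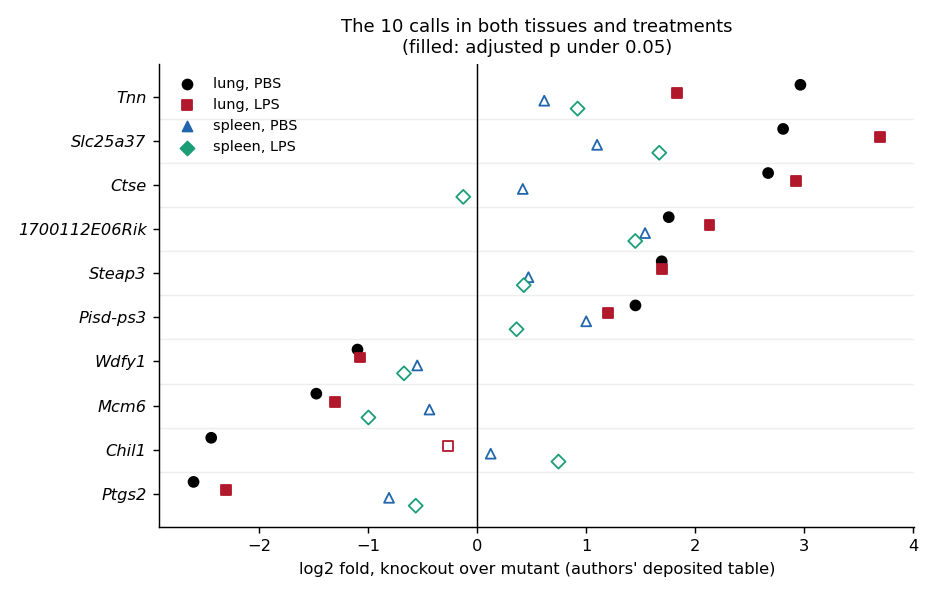
Log2 fold of knockout over mutant (x axis) from the authors' deposited table for the 10 genes called in lung with PBS, in lung and spleen with PBS and LPS; filled symbols have an adjusted p under 0.05. Lung folds with LPS are filled for 9 of 10 genes, Chil1 being the exception, and no spleen symbol is filled. Slc25a37 and 1700112E06Rik had no adjusted p in spleen with LPS, so their open symbols there stand for untested entries. Slc25a37 and Ctse are shown by their called entries only.

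The wild type means show which line stood apart from wild type. They share the knockout and mutant libraries with the comparison, so the values are given side by side only. For 9 of the 10 called entries the knockout with PBS lay farther from wild type than the mutant did by the authors' folds. For 5 of the 10 the wild type mean lay between the lines. Of the 10, 6 were also called in knockout against wild type, where 8 of 18982 entries were called (0.0421%): Ptgs2, Chil1, Tnn, Steap3, Mcm6 and Ctse. None was called in mutant against wild type, where 1 of 19083 was (0.00524%), lincRNA-Cox2 itself. The 4 called in neither were Wdfy1, Slc25a37 (the called entry), 1700112E06Rik and Pisd-ps3, all with a wild type mean between the lines. 1700112E06Rik was the gene for which the mutant lay farther from wild type with PBS. Its log2 folds by the authors' deposited table were -1.37 for the mutant and 0.38 for the knockout (adjusted p = 1 for both). With LPS the called Slc25a37 entry lay farther from wild type in the mutant. Its log2 folds there were -2.97 for the mutant (adjusted p 1.3e-05) and 0.73 for the knockout (adjusted p 0.507), by the authors' deposited table. The LPS folds of mutant and knockout were -1.05 and 0.15 for Pisd-ps3, 0.27 and -0.80 for Wdfy1, and -1.06 and 1.07 for 1700112E06Rik.

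Of the 10 calls, 7 lie on chromosome 1, that of the targeted locus, which held 1080 of the 17886 tested entries with a position (6.04%). In mm10 these were Wdfy1 (chr1:79702262-79776143), Steap3 (chr1:120190757-120272705), Mcm6 (chr1:128331590-128359664), Ctse (chr1:131638306-131675505), Chil1 (chr1:134182176-134190181), Ptgs2 and Tnn (chr1:160085029-160153580). Relative to lincRNA-Cox2 Wdfy1 starts at -70.46 Mb, and all the others start between -29.97 Mb and 9.93 Mb. Of 832 chromosome 1 entries with a mean of at least 10 the median log2 ratio was 0.011, with 9 at least 2-fold higher and 11 at least 2-fold lower. Within 5 Mb of lincRNA-Cox2 1 of 30 entries (Ptgs2) was at least 2-fold lower and 0 higher, and within 20 Mb 7 of 214 were lower and 4 higher. Over all entries with a mean of at least 10, 0.413% were at least 2-fold lower and 0.935% higher. Other entries close to called ones had low ratios without a call: 5430435G22Rik, next to Ctse, with authors' means of 211 and 91.3, and Golt1a, between Ctse and Chil1, with authors' means of 11.5 and 0.695. Marco, a scavenger receptor of macrophages that lies beside Steap3 (chr1:120474538-120505024), had authors' means of 167 and 82.3. Entries with high ratios and no call include Myl1, a skeletal muscle myosin light chain, with authors' means of 16.5 and 177. Golt1a, Marco and Myl1 are named for their values.

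**Figure D4:**
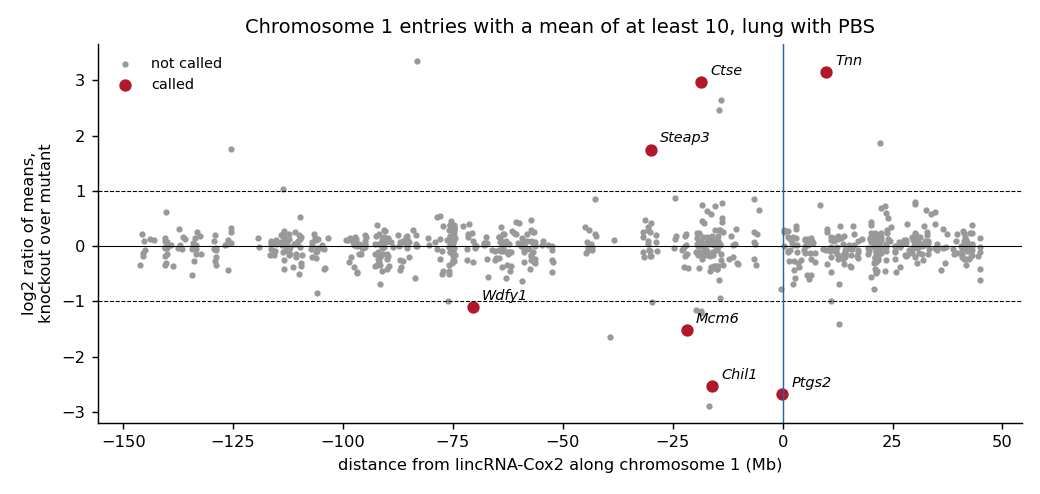
Log2 ratio of authors' means with a pseudocount of 1, knockout over mutant lung with PBS (y axis), against distance from lincRNA-Cox2 along chromosome 1 in Mb (x axis) for 832 entries with a mean of at least 10. Of the 7 called entries (red), all but Wdfy1 start between -29.97 Mb and 9.93 Mb. Uncalled entries, whose median ratio lies near 0, lie between them. Dashed lines mark 2-fold.

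The 8 highest ratios among entries with a mean of at least 100 all belonged to skeletal muscle genes. The 8 lowest were Ptgs2, Chil1, Mcm6, Wdfy1, 5430435G22Rik, Rmrp, Rpph1 and Fkbp5. Rmrp and Rpph1, the RNA parts of the RNase MRP and RNase P enzymes, had authors' means of 227 and 75.4 and of 341 and 144, each at adjusted p = 1 by the authors' deposited table. With LPS both were higher in the knockout, with authors' means of 176 and 458 for Rmrp and of 314 and 803 for Rpph1.

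Skeletal muscle genes were far higher in the knockout lungs by the means, without a call; in bulk tissue fewer cells of a type and less RNA per cell cannot be told apart. All 18 markers were at least 2-fold higher, with a median log2 ratio of 4.46, and their summed authors' mean was 385 in the mutant, 396 in wild type and 7080 in the knockout. In the authors' deposited table the median log2 fold of the list was 2.08. Acta1, skeletal muscle actin, had authors' means of 1.20 and 1100, Myh1, a fast myosin, 0.923 and 1030, Myh8, the perinatal myosin, 0.215 and 649, and Pygm, muscle glycogen phosphorylase with the lowest ratio, 223 and 471. None was called, and 10 of the 18 had no adjusted p in the authors' deposited table. No defining marker was at 0 in the knockout, and 1 was in the mutant (Myh4, 205 in the knockout). With LPS the median log2 ratio of the list was 2.70. The authors' means of Acta1 were then 2.46 in the mutant and 157 in the knockout, while those of Myh8 were 0.764 and 0.803 and those of Pygm 195 and 177. Which of the 2 PBS libraries carries these reads cannot be told from the mean. The part of muscle RNA in the other differences was not tested; cardiac markers, which lung holds in its pulmonary veins, lay on both sides of equality. Of 12 with a mean of at least 10, 5 had a log2 ratio above 0 and 7 below, with a median of -0.31. Authors' means of Myh6, the atrial myosin, were 809 and 626. Myl2 and Myl3, myosin light chains that slow skeletal muscle also makes, were at least 2-fold higher in the knockout, with authors' means of 0.43 and 39.6 and of 12.9 and 84.9.

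Among 11 hepatocyte markers, 8 had a mean of at least 10, and 6 of those were at least 2-fold higher in the knockout, each of which reached that mean in the knockout alone. Over the 8 the median log2 ratio was 2.04, and over all 11, with no filter on means, 1.74. None was called. The authors' mean of Alb, albumin, was 370 in wild type, 9.08 in mutant and 110 in knockout lungs, so wild type held the most. By the folds in the authors' deposited table the median of the 8 was 0.19. The 10 adipocyte genes had a median of -0.57, and Ucp1, the uncoupling protein of brown fat, was listed at 0 in wild type, with authors' means of 69.8 in mutant and 3.46 in knockout lungs. Pancreatic enzymes were low in both lines, with a summed authors' mean of 72.7 in the mutant and 93.1 in the knockout against 1180 in wild type. Each PBS group held both Xist and Y-linked RNA: the authors' mean of Xist was 3300 in mutant and 1910 in knockout lungs, and that of Ddx3y 317 and 447.

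Defining markers of the resident lung cells were present in both lines. Sftpc, surfactant protein C of alveolar type 2 cells, had authors' means of 27000 in mutant and 27600 in knockout lungs, and the 10 type 2 markers had a median log2 ratio of 0.03. All 8 type 1 markers were above 0, with a median of 0.24; Ager, a receptor that marks these cells, was at 11300 and 13100 and Akap5, a kinase anchor with the highest ratio, at 4370 and 5800. Endothelial markers had a median of 0.08, with Cdh5, the junction protein VE-cadherin, at 8530 and 9510. All 10 club cell markers were below 0, with a median of -0.24; Scgb1a1, their main secretory protein, was at 18400 and 16700 and Reg3g, an antibacterial lectin, at 259 and 140. No marker of these lists was called.

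Alveolar macrophage markers had lower means in the knockout, with all 11 log2 ratios below 0, a median of -0.53 and none called. Marco, a scavenger receptor, had authors' means of 166 in wild type, 167 in mutant and 82.3 in knockout lungs. Chil3 was at 2650, 2460 and 1300, and Pparg, the nuclear receptor these cells need, at 74.7, 81.6 and 70.4. All 10 markers of natural killer and cytotoxic cells were below 0 as well, with a median of -0.39. Their summed authors' mean was lowest in wild type, at 564, with 985 in the mutant and 749 in the knockout. Gzma, a granule protease, had authors' means of 129 in wild type, 244 in mutant and 160 in knockout lungs.

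No gene of the inflammatory lists that follow was called. The 14 cytokines with a mean of at least 10 had a median log2 ratio of 0.03, the 24 chemokines one of 0.01 and the 36 type I interferon response genes one of 0.08, with no interferon gene differing 2-fold. Of 16 interferon gamma induced genes 13 were above 0, with a median of 0.26; Gbp2, a guanylate-binding protein with the highest mean and ratio, was at 1180 in the mutant, 1640 in the knockout and 1900 in wild type. Lif, a cytokine of the interleukin 6 family, had the highest cytokine ratio, with authors' means of 22.5 and 41.5, and Csf2, a myeloid growth factor, the lowest, with 17.7 and 13.7. Cxcl13, which attracts B cells, was the chemokine with the highest ratio, with authors' means of 30.7 in the mutant, 109 in the knockout and 85.8 in wild type. Of 21 NF-kB targets and feedback regulators 18 were above 0, with a median of 0.19; Icam1, an adhesion molecule, was at 3190 and 4150.

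Rapidly inducible genes had somewhat higher means in the knockout than in the mutant. Of 22 immediate early genes 21 had a log2 ratio above 0, with a median of 0.36 and none called. Nr4a3, an orphan nuclear receptor, had the highest ratio, with authors' means of 38.7 in wild type, 10.6 in mutant and 26.2 in knockout lungs, and Myc, a growth regulator, the lowest, with 76.8 in the mutant and 63.8 in the knockout. Of 13 heat shock chaperones 12 were above 0, with a median of 0.37. Hspa1a and Hspa1b, the stress-inducible members, had authors' means of 83 and 305 and of 95 and 354, with wild type at 205 and 242. For Nr4a3, Hspa1a and Hspa1b the mutant was the group farther from wild type. The 9 MHC class II genes had a median of 0.37, with Cd74, the invariant chain, at 6180 in the mutant and 8460 in the knockout. Over wild type, the median log2 ratios of mutant and knockout were -0.326 and -0.063 for the immediate early genes. They were -0.534 and -0.162 for the chaperones and -0.501 and -0.195 for MHC class II. In each of these lists the mutant median was the one farther below wild type.

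**Figure D5:**
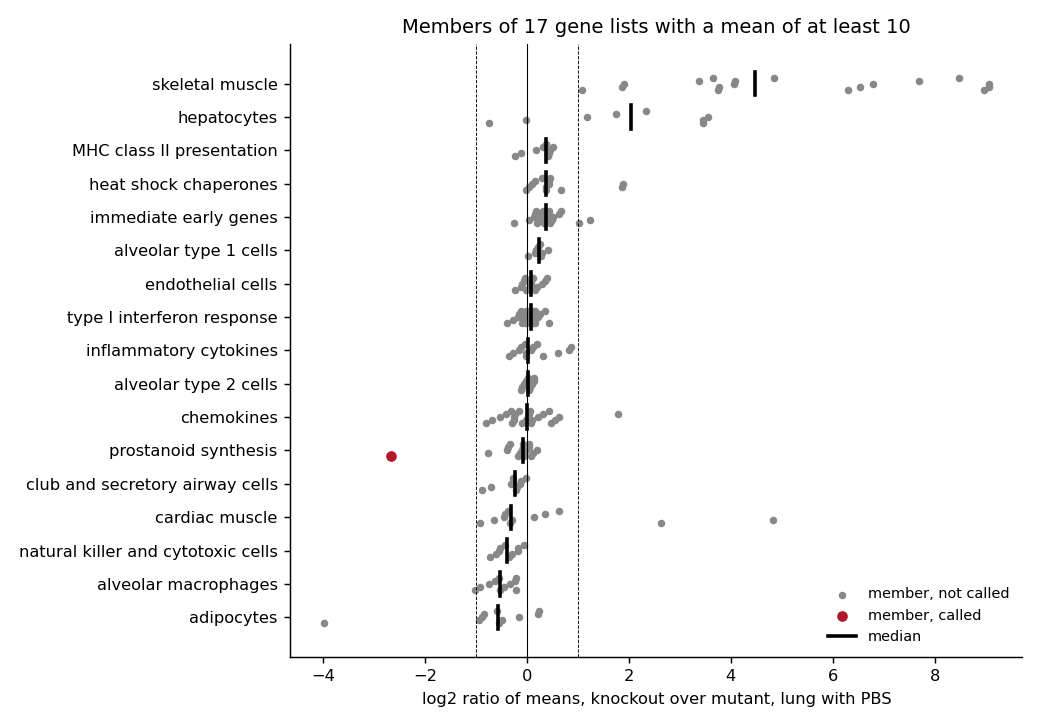
Log2 ratio of authors' means, knockout over mutant lung with PBS (x axis), for members with a mean of at least 10 of 17 gene lists (rows; points are genes, the bar is the median, red marks a call). Skeletal muscle has a median of 4.46 and hepatocytes 2.04, while the other 15 medians lie within 1 of 0 and Ptgs2 is the 1 called member. The hepatocyte markers at least 2-fold higher reached a mean of 10 in the knockout alone. Without the filter on means the hepatocyte median was 1.74, and with it, by the authors' folds, 0.19. The row of prostanoid synthesis also holds lipoxygenase and leukotriene genes.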

How the data were processed

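Messenger RNA libraries of lung and spleen were made with Illumina kits, per the labels' protocols. The submitters' processing notes name STAR 2.5.3a, Bowtie2, SAMtools, bedtools and DESeq2, with mm10, without order or settings. Per the file headers, the deposited tables give group means of normalized counts (a signal, counts divided by size factors) and, for each genotype comparison, the authors' log2 fold, adjusted p-value and call mark. The deposited adjusted p-values and marks are taken as the authors' scores. Unadjusted p-values were not used here. Of 19476 lung lines 6 were broken and left out (5 of 18850 in spleen). Positions came from GENCODE M21 and RefSeq synonyms (93.4% of lung entries).

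The test is the authors' DESeq2 comparison across all genes, called at an adjusted p under 0.05. Ratios of means used a pseudocount of 1 and only entries whose mean reached 10 in 1 or both groups (Python 3.11.15, pandas 2.3.3, numpy 2.4.6). Reads of single libraries were solved for in the 186 lung lines whose means keep 6 decimals, and used where exactly 1 pair of whole reads fitted; the knockout mean was rebuilt from the 15-library mean. On simulated means of these 186 lines the solver was accepted in 9 of 10 knockout runs and 10 of 10 mutant runs. In these runs 100% of the resolved lines were right. The simulated size factors were drawn at random, while those of the knockout libraries were close, at 1.48 and 1.44. In the data 114 knockout lines were resolved, and the share right was not measured for so close a pair in particular. Most genes were named by rule: entries with an adjusted p up to 0.1, lincRNA-Cox2, the 8 highest and 8 lowest ratios at a mean of at least 100, and of each list described the members with the highest mean and the highest and lowest ratio. Other genes (Nnt, Pla2g4a, the other Mcm genes, second entries and further list members) are named after their values were seen. The members and the 52 gene lists were chosen with earlier results of these data known. Alternatives were other pseudocounts, filters, thresholds and the authors' folds, and each resolved library left out. Genes overlapping on opposite strands cannot be told apart, since no source says whether strand was used.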

Additional observations from a re-analysis of the deposited data

How the results depend on the processing

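At an adjusted p up to 0.1 the count of calls stayed at 10. Over 23 results 102 alternatives gave 89 values near the main one, 13 that moved and 0 that reversed. With a pseudocount of 10, 82 entries were at least 2-fold higher and 14 lower. The counts were 355 and 287 with no filter on means, and 62 and 13 with a mean of at least 50, in place of 138 and 61. Of the gene lists, 2 had a median of at least 0.5 and 3 a median of at most -0.5. By the authors' folds these were 1 and 0, and with a pseudocount of 10 there was 1 of at most -0.5. The causes were not tested. All 24 values with a library left out kept their sign. This could not turn out otherwise, because in each of these genes both knockout libraries lie beyond both mutant libraries. Ptgs2 ran from -2.95 to -2.33, while Mcm6 reached -1.70 without knockout library 2 and 1700112E06Rik 2.28 without mutant library 1. The count of calls without a library was not run, since only 186 lines can be resolved. No paired analysis was possible because the columns are group means and the library numbers run on through the series. Group means without a spread, and 2 libraries a group, limit every value here.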

Other observations

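Some genes outside the lists and calls had means far apart between the lines. H19, an imprinted RNA of fetal tissue and muscle, had authors' means of 11.8 in wild type, 13.2 in mutant and 265 in knockout lungs with PBS, and 2.49 and 15.8 in mutant and knockout with LPS. Cyp1a1, the enzyme induced through the aryl hydrocarbon receptor, had authors' means of 60.5 in wild type, 100 in mutant and 389 in knockout lungs with PBS. With LPS its authors' means were 7.93 in the mutant and 1.27 in the knockout. Fkbp5 and Zbtb16, both induced by glucocorticoids, were lower in the knockout, with authors' means of 255 and 116 and of 466 and 221. The 13 glucocorticoid-responsive genes and metallothioneins had a median log2 ratio of -0.17 and none was called. Ribosomal RNA, listed as Rn45s, had authors' means of 3370 in wild type, 2950 in mutant and 1560 in knockout lungs. These genes were named after their values were seen.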
